A study of Bos taurus with 16 samples.

Results

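Keratins are the intermediate filament proteins of epithelial cells, and the 86 probes studied here are those of the 43653 on a bovine one-colour array whose gene name in the scanner files is KRT followed by a number and at most 1 letter. They stand for 44 of the 25325 gene names on the array, which fall into simple epithelial keratins (KRT7, KRT8, KRT18 and KRT19, 10 probes), epidermal and mucosal keratins (14 genes, 33 probes), keratins of the hair root sheath (8 genes, 14 probes), keratins of the hair shaft (15 genes, 25 probes) and 3 other keratins (4 probes). Endometrium, the lining of the uterus, was taken from the uterine horns of 4 fertile cows with biopsy forceps at nominal days 10, 30, 50 and 100 after calving, with true sampling days from 9 to 10, 29 to 30, 49 to 51 and 99 to 100. Each group is therefore 4 arrays of total RNA, 1 from each cow, with no treatment beyond the time since calving. The comparisons ask how keratin RNA differed between these times, with each cow compared with itself. Each cow had a slide of its own, so cow and slide cannot be told apart.

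A keratin filament is built from pairs of a type I and a type II keratin, and the pair that a cell makes marks its kind of epithelium. KRT8 (type II) with KRT18 (type I) is the basic pair of simple, single-layered epithelia, and KRT7 (type II) and KRT19 (type I) are further keratins of simple and glandular epithelia such as the lumen and glands of the endometrium. Keratins such as KRT5, KRT14, KRT10 and KRT4 are known from stratified epithelia of skin and mucosa, and KRT31 to KRT40 and KRT81 to KRT86 from the hair shaft. All keratins share a central rod, and both ends of that rod are the stretches most alike between family members.

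Because such stretches bear on which gene a probe reads, 2 letter patterns were searched in all 43653 probes of 60 bases, on both strands. The patterns were chosen after the keratin probe sequences had been read. The first, with 10 fixed letters, stands for the start of the rod, and 4 probes (0.00916% of all) held it, 2 of them keratin probes. The second, with 8 fixed letters, stands for the end of the rod, and 61 probes (0.14%) held it, 4 of them keratin probes. Of these keratin probes 5 are shown, because their values return below. They are printed 5′ to 3′ with the matched letters in capitals, 2 for the rod start and then 3 for the rod end.
KRT13 (RefSeq KRT15), chr19:43083552-43083611, minus strand: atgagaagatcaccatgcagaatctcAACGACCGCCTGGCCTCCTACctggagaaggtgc
KRT6A, chr5:30284080-30284139, plus strand: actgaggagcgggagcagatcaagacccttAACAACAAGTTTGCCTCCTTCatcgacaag
KRT19, chr19:43089461-43089520, minus strand: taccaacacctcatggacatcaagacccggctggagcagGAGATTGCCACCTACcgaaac
KRT13 (RefSeq KRT15), chr19:43081086-43081145, minus strand: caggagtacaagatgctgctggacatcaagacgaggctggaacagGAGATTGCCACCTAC
KRT10, chr19:42275010-42275069, minus strand: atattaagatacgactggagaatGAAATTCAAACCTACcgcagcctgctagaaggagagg

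Coordinates are those of the scanner files, on bovine build HGSC Btau_3.1, and their place within exons was not analysed here. The probe of KRT24, a type I keratin, is shown because KRT24 was called at day 50 against day 10. It holds neither pattern.
KRT24, chr19:42168143-42168202, minus strand: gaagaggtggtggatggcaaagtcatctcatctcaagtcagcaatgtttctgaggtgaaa

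The gene names date from the design of the array, and 11 keratin probes have another current symbol through their accession in RefSeq's gene table. All 4 probes named KRT13 match KRT15, a keratin of basal cells, and 2 of the 3 named KRT10 match KRT28. The other 5 match neighbouring hair keratins (KRT33A, KRT33B and KRT37, and KRT89 for 2 probes named KRT85). A further 4 probes with other names now belong to keratins and were not counted. The names of the files are kept below, with KRT13 written as KRT13 (KRT15).

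Simple keratins were read on every array, and 17 of the 40 other keratin genes on none. A probe is called well above background where the scanner software marked it so. All 10 probes of KRT7, KRT8, KRT18 and KRT19 were well above background on all 16 arrays. The share of probe and array pairs well above background was 34.7% for the epidermal and mucosal keratins, 10.3% for the root sheath, 17% for the hair shaft and 12.5% for the other keratins. Over all keratins it was 32.1%, against 69.8% over all probes of the array. Of the 86 probes, 17 were well above background on all arrays, 12 on 1 to 3 arrays and 42 on none.

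**Figure D1:**
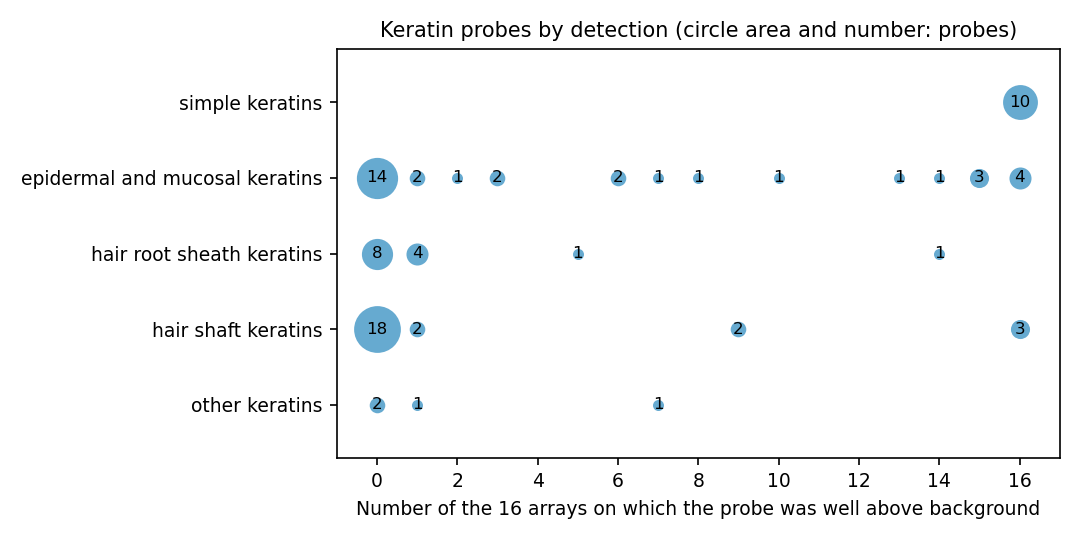
Number of the 16 arrays on which a keratin probe was well above background (horizontal axis), by keratin class (vertical axis), with circle area and the printed number giving the count of probes. All 10 simple keratin probes sit at 16 arrays, while 14 of 33 epidermal and mucosal, 8 of 14 root sheath and 18 of 25 hair shaft probes sit at 0.

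The number of arrays passed decided which probes were tested. The 32 keratin probes of 22 genes that were well above background on at least 4 arrays entered the fit, with 33182 probes in all. These were the 10 probes of the 4 simple keratins and 22 probes of 18 other keratins. The 54 other probes were not tested. The 22 genes with no tested probe were KRT2, KRT6C, KRT12, KRT20, KRT23, KRT25, KRT26, KRT27, KRT32, KRT33A, KRT34, KRT36, KRT38, KRT39, KRT40, KRT71, KRT72, KRT73, KRT74, KRT82, KRT84 and KRT86. Of these genes 17 were well above background on no array, and KRT20, KRT32, KRT71, KRT72 and KRT74 had probes that passed on 1 array each. Between 24 and 33 of the 86 keratin probes were well above background on an array. The day 10 array of cow 1 alone read 1 probe each of KRT20, KRT32, KRT74 and KRT80. That array also had the most probes of any gene that passed nowhere else, 379, with at most 352 on another array. It had the most nonuniform spots of all arrays, 125, and the smallest share of probes well above background, 61.1%. Of 14 listed hair follicle and melanocyte markers only 3 were measured. With each marker centred on its own mean over all arrays, their mean level on that array was 2.67. In cows 2, 3 and 4 at day 10 it was -0.59, 0.43 and 0.85. The part of any of these array traits or of hair material in these 4 probes was not tested.

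A level is the log2 processed signal of a probe minus the 75th percentile of its array, so 0 marks that percentile. Levels of different probes are not set against each other. The mean of a marker list is on another scale. Each gene's own mean over all arrays was subtracted before averaging, so 0 marks the list's average and no percentile. This holds for every list mean given here, among them the epithelial and smooth muscle means. A difference is the later day minus the earlier on this log2 scale, fitted by limma with terms for time and cow, and is called where the Benjamini-Hochberg adjusted p over all 33182 probes is under 0.05.

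Among the keratins, KRT24 and KRT10 were called higher at day 50 against day 10, and KRT10 was called higher at day 100 against day 10. The KRT10 probe entered the test only through its arrays of days 50 and 100, on which it was high. No keratin probe fell in any comparison, where 0.407%, 1.05% and 3.15% of all tested probes fell at days 30, 50 and 100 against day 10. Of the 32 tested probes, 2 were called at day 50 against day 10, both higher, where 1.65% of all tested probes were called and 0.594% were higher. At day 100 against day 10, 1 was called, higher, where 4.6% of all tested probes were called and 1.45% were higher. At day 30 against day 10, 0 were called, where the share of all tested probes was 0.419%, with 0.0121% higher. limma called 0 keratin probes at day 50 against day 30, at day 100 against day 30 and at day 100 against day 50, where 0% of all tested probes were called. Without adjustment 1 of the 32 had a p under 0.05 in each of these 3 comparisons, beside 9.33%, 12.8% and 3.14% of all tested probes. At day 30 against day 10, 2 of the 32 had, beside 14% of all tested probes. At day 50 against day 10, 3 of the 32 were higher and 1 lower at such a p, beside 18.6% of all tested probes in either direction. At day 100 against day 10, 4 of the 32 were higher and 1 lower, beside 25.7%. The F test over the 4 times called 1 keratin probe, that of KRT10, where 1.03% of all tested probes were called. The median difference of the 32 probes was -0.14, 0.28 and 0.15 at days 30, 50 and 100 against day 10, beside -0.01, -0.03 and -0.07 over all tested probes.

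KRT24 is a type I keratin known in human from keratinocytes and corneal epithelium. Its level at day 10 was -7.08, -8.54, -6.43 and -9.27 in cows 1 to 4, and only cow 3 was well above background. At day 30 it was -1.52, -2.43, -0.93 and -6.52. At day 50 it was 0.02, 0.98, -1.59 and -2.65, and at day 100 it was -5.90, -4.50, -2.15 and -1.14. All 12 arrays of days 30 to 100 were well above background. No day 50 value overlapped the day 10 values, while the lowest day 30 value lay among those of day 10. Cows 1 and 2 were highest at day 50, cow 3 at day 30 and cow 4 at day 100.

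The difference of KRT24 at day 50 against day 10 was 7.02 ± 1.29 (SE, 4 cows, limma adjusted p = 0.028), and it was positive in 4 of 4 cows. Its size is uncertain, because 3 of the 4 day 10 arrays were not well above background. The differences at day 30 and day 100 against day 10 were 4.98 ± 1.29 (limma adjusted p = 0.122) and 4.41 ± 1.29 (limma adjusted p = 0.0687), also positive in 4 of 4 cows, and did not pass. The day 50 call was lost when any 1 of the 8 arrays of days 10 and 50 was left out, with differences of 6.27 to 7.79 and limma adjusted p from 0.0549 to 0.114. It was also lost without cow 1, 2 or 3 (adjusted p = 0.139, 0.132 and 0.145) and kept without cow 4 (adjusted p = 0.0355). With normexp background correction and quantile normalization the difference was 3.45 (adjusted p = 0.0579).

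KRT10 is the type I keratin of differentiating, suprabasal skin cells. The tested probe, which carries the rod-end pattern, had levels of -6.83, -8.71, -8.08 and -7.76 in cows 1 to 4 at day 10 and of -5.61, -7.07, -7.66 and -7.74 at day 30, and on none of these 8 arrays was it well above background. At day 50 the levels were -4.62, -5.71, -5.68 and -4.52, all well above background. At day 100 they were -6.29, -6.76, -5.75 and -4.81, with cow 2 not well above background. The day 50 values lay above all day 10 values. The day 100 values did so only narrowly, with -6.76 in cow 2 against -6.83 in cow 1 at day 10. Neither of these values was well above background, so the separation at day 100 is uncertain.

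KRT10 was at least 2.61-fold higher at day 50 than at day 10, from measured means of -5.13 ± 0.65 and -7.84 ± 0.78 (SD, n = 4 each), and the fitted difference was 2.71 ± 0.46 (SE, limma adjusted p = 0.024). At day 100 it was at least 1.53-fold higher than at day 10, with a mean of -5.90 ± 0.83 (SD, n = 4) and a fitted difference of 1.94 ± 0.46 (SE, limma adjusted p = 0.0403). Such a bound sets the brighter group against the lowest signal that counts as well above background on the dim arrays. Each difference was positive in 4 of 4 cows. The probe passed the filter only through days 50 and 100, when it was high. The calls are therefore no independent support for a rise. With no filter on dim probes the limma adjusted p was 0.0279 at day 50 and 0.0509 at day 100, where the call was lost. The F test over the 4 times gave an adjusted p of 0.0487 for KRT10 and of 0.0694 for KRT24. The day 50 call of KRT10 was lost without any 1 of the 8 arrays of days 10 and 50 (differences of 2.56 to 2.88, limma adjusted p from 0.0507 to 0.0853) and without any 1 cow (adjusted p from 0.0595 to 0.149). The day 100 call was lost without any 1 cow, with differences of 1.61 to 2.41 and adjusted p from 0.0689 to 0.219. It held without 2 of the 8 arrays of days 10 and 100 and without 3 of the 8 others. With normexp and quantile normalization the difference was 0.54 at day 50 (limma adjusted p = 0.0443) and 0.48 at day 100 (limma adjusted p = 0.0481), with an offset of 50. Both are smaller than the bounds, which hold for the processed signal alone. The 2 other probes named KRT10, whose accession is that of KRT28, were well above background on no array.

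**Figure D2:**
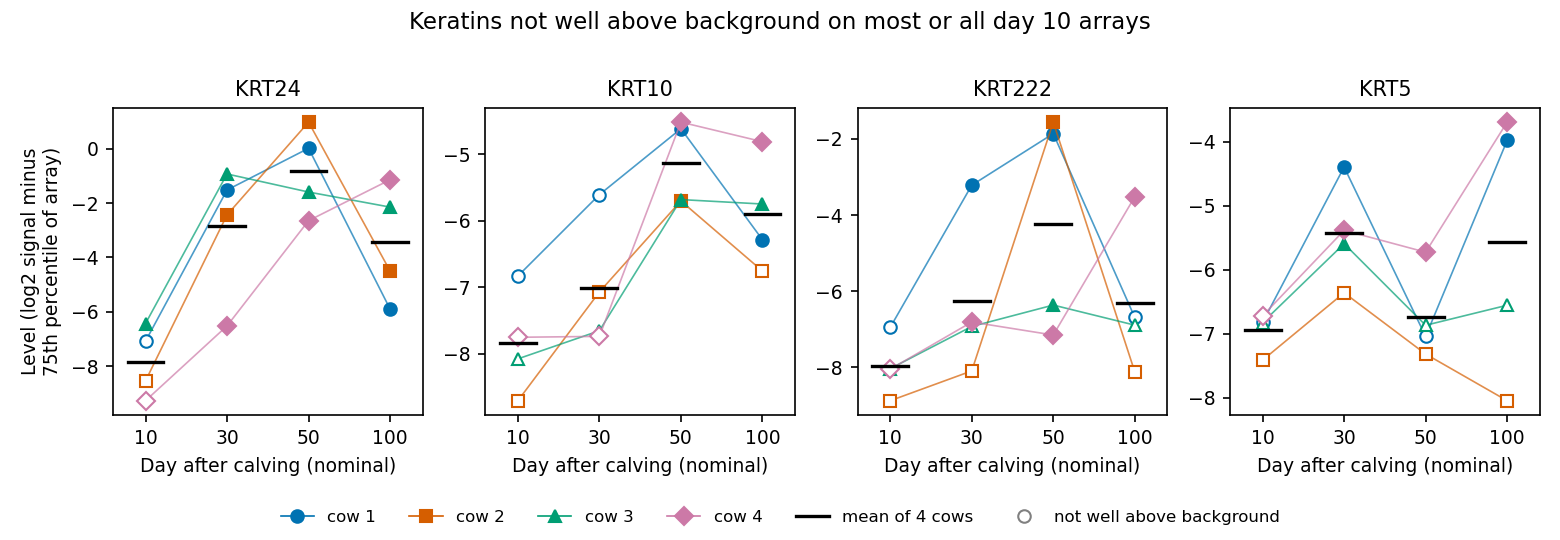
Level (log2 signal minus the 75th percentile of the array) of KRT24, KRT10, KRT222 and KRT5 at nominal days 10, 30, 50 and 100, with 1 point per cow joined by a line and a bar for the mean of 4 cows. Open points were not well above background; KRT24 was open in 3 of 4 cows at day 10 and in none later, and the 4 KRT10 points of day 50 lie above the 4 of day 10.

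Other cell types differed between the same days. Of 7 measured macrophage markers 5 fell at day 30, 5 at day 50 and 7 at day 100 against day 10. The macrophage fall was thus called at day 30, when no keratin was. Their mean centred level over an array ran from 1.15 to 2.81 at day 10 and from -1.27 to 0.25 at day 30. It ran from -1.59 to 0.84 at day 50 and from -1.32 to -0.10 at day 100. Of 5 measured neutrophil markers 0 were called at day 30 and 1 fell at day 50 against day 10. That marker was S100A12, a neutrophil calcium-binding protein, with a difference of -5.14 (limma adjusted p = 0.0497). The mean centred neutrophil level ran from -0.05 to 4.96 at day 10 and from -1.98 to -0.15 at day 30. It lay at or below -0.88 on the day 50 arrays. KRT24 correlated with the neutrophil level at r = -0.78 over the 16 arrays, which share 4 cows. The epithelial marker list without keratins had 0 of 24 members called in any comparison. Its mean centred level ran from 0.79 to 1.59 at day 50, against -2.88 to 0.72 at day 10, without overlap. With that epithelial level as a covariate the day 50 difference was 6.46 for KRT24 (adjusted p = 0.067) and 2.58 for KRT10 (adjusted p = 0.0546), so that neither was called. With the smooth muscle level added, the day 50 difference of KRT24 was 5.41 (adjusted p = 0.0402) and that of KRT10 was 2.30 (adjusted p = 0.0642). At day 100 against day 10 KRT10 was called in both fits, at 1.88 (limma adjusted p = 0.0497) and, with smooth muscle added, 1.98 (limma adjusted p = 0.0262). KRT24 was at 4.13 (limma adjusted p = 0.0846) and, with smooth muscle added, at 4.53 (limma adjusted p = 0.0164), where it gained a call. The part of macrophages and neutrophils was not tested. In biopsies, fewer cells of a type and less RNA per cell cannot be told apart.

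KRT222, a keratin-like gene, was read at days 30, 50 and 100 but not at day 10. Its level at day 10 was -6.95, -8.88, -8.04 and -8.05 in cows 1 to 4, not well above background on any array, and at day 50 it was -1.86, -1.56, -6.37 and -7.16, well above background on all 4. At day 30 it was -3.22, -8.10, -6.93 and -6.81, and at day 100 it was -6.69, -8.12, -6.90 and -3.52. The day 50 values of cows 1 and 2 stood far above those of cows 3 and 4, and the value of cow 4 lay among those of day 10. The probe was well above background on 0, 2, 4 and 1 arrays at days 10, 30, 50 and 100. It therefore entered the test only through its day 50 arrays, the group in which its mean was highest. The fitted difference at day 50 against day 10 was 3.75 ± 1.33 (SE, limma adjusted p = 0.166, 95% interval 0.83 to 6.66). It was positive in 4 of 4 cows and did not pass. The bound from the measured signals was 4.87-fold. That bound is no lower limit of the fitted difference, whose interval includes smaller values. KRT222 and KRT24 correlated at r = 0.72 over the 16 arrays, and KRT10 and KRT24 also at r = 0.72, in arrays that share 4 cows.

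KRT5, the type II keratin of basal cells, was not well above background at day 10, at -6.82, -7.41, -6.83 and -6.72 in cows 1 to 4. At day 30 it was -4.40, -6.36, -5.59 and -5.39, above all day 10 values and well above background in 3 cows. The probe was well above background on 0, 3, 1 and 2 arrays at days 10, 30, 50 and 100. Without its day 30 arrays it would not have entered the test. The fitted difference at day 30 against day 10 was 1.51 ± 0.60 (SE, limma adjusted p = 0.295, 95% interval 0.20 to 2.82) and did not pass. The bound from the measured signals was 1.84-fold. That bound is no lower limit of the fitted difference, whose interval includes smaller values. At day 100 KRT5 was at -3.98, -8.05, -6.56 and -3.70, with cows 1 and 4 high and cow 2 the lowest of all. KRT14, its usual type I partner, stayed between -4.42 and -3.12 on all 16 arrays, well above background on each, while its other probe was so on 0 arrays. KRT4, a type II keratin of mucosal epithelia, differed by 1.22 ± 0.40 at day 100 against day 10 (SE, limma adjusted p = 0.0951) and was higher in 3 of 4 cows. That probe was well above background on 10 arrays and ranged from -7.19 to -4.41, and the 2 other KRT4 probes were on 0 arrays. Of the 22 tested keratin genes, 9 had at least 1 further probe that was well above background on no array.

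The 4 simple keratins passed the test in no comparison. Their 10 probes had a lowest limma adjusted p of 0.46 over the 6 comparisons, and the F test gave at least 0.428. The median difference of the 10 probes was -0.49, 0.94 and 0.36 at days 30, 50 and 100 against day 10. At day 50 against day 30 it was 1.61, beside -0.0042 over all tested probes. Of the 10 probes 9 were higher there, but they stand for 4 genes on the same arrays, and their lowest limma adjusted p was 0.54.

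KRT8 had levels of 4.86, 0.42, 2.13 and 4.20 in cows 1 to 4 at day 10, of 2.62, 2.38, 3.31 and 1.29 at day 30, of 3.84, 3.51, 4.10 and 4.25 at day 50 and of 5.15, 2.36, 3.51 and 3.63 at day 100. The 4 times overlapped, except that all day 50 values lay above all day 30 values. The difference at day 50 against day 30 was 1.53 ± 0.71 (SE, limma adjusted p = 0.54), with a 95% interval of -0.03 to 3.08. KRT18 had levels of 2.17, -2.21, -0.01 and 2.20 at day 10, of 0.29, 0.36, 1.74 and -1.27 at day 30, of 1.89, 2.17, 1.83 and 2.05 at day 50 and of 3.36, -1.73, 2.57 and 2.05 at day 100. Its day 50 values also lay above all day 30 values, with a difference of 1.70 ± 0.98 (SE, limma adjusted p = 0.594, 95% interval -0.44 to 3.84).

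For KRT18 and KRT8 the cows lay closest together at day 50. The SD of the KRT18 level over 4 cows was 0.15 at day 50, against 2.10 at day 10, 1.23 at day 30 and 2.26 at day 100. For KRT8 it was 0.33 at day 50, against 2.02, 0.84 and 1.14. For KRT19 and KRT7 the spread was smallest at day 30, with an SD of 0.59 against 0.93 at day 50 for KRT19 and of 1.52 against 1.72 for KRT7. Another KRT8 probe also had its smallest SD at day 30, 0.25, against 0.38 at day 50. These spreads are a description and were not tested. Cow 2 had the lowest KRT8 and KRT18 of the 4 cows at day 10 and at day 100, and cow 4 had the lowest at day 30.

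KRT19 had levels of 3.34, -0.21, 1.27 and 3.01 in cows 1 to 4 at day 10, of 1.84, 2.42, 2.83 and 1.51 at day 30, of 1.61, 1.98, 2.88 and 3.68 at day 50 and of 4.77, 0.58, 2.31 and 1.23 at day 100. The 4 times overlapped, and the difference at day 50 against day 10 was 0.68 ± 0.85 (SE, limma adjusted p = 0.715, 95% interval -1.18 to 2.54). KRT7 had levels of 1.38, -3.35, -1.31 and 1.46 at day 10, of -2.42, -0.08, 0.39 and -2.49 at day 30, of -3.03, -1.93, -0.80 and 0.99 at day 50 and of 0.99, -4.42, -1.54 and -3.36 at day 100. KRT7 was lower at day 100 than at day 10 in 4 of 4 cows, with a difference of -1.63 ± 1.35 (SE, limma adjusted p = 0.465, 95% interval -4.58 to 1.33), which did not pass. Its mean at day 50 was -1.19, against -0.46 at day 10, while the means of KRT8, KRT18 and KRT19 were higher at day 50. Intervals of this width leave differences of several log2 units in either direction undetected.

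**Figure D3:**
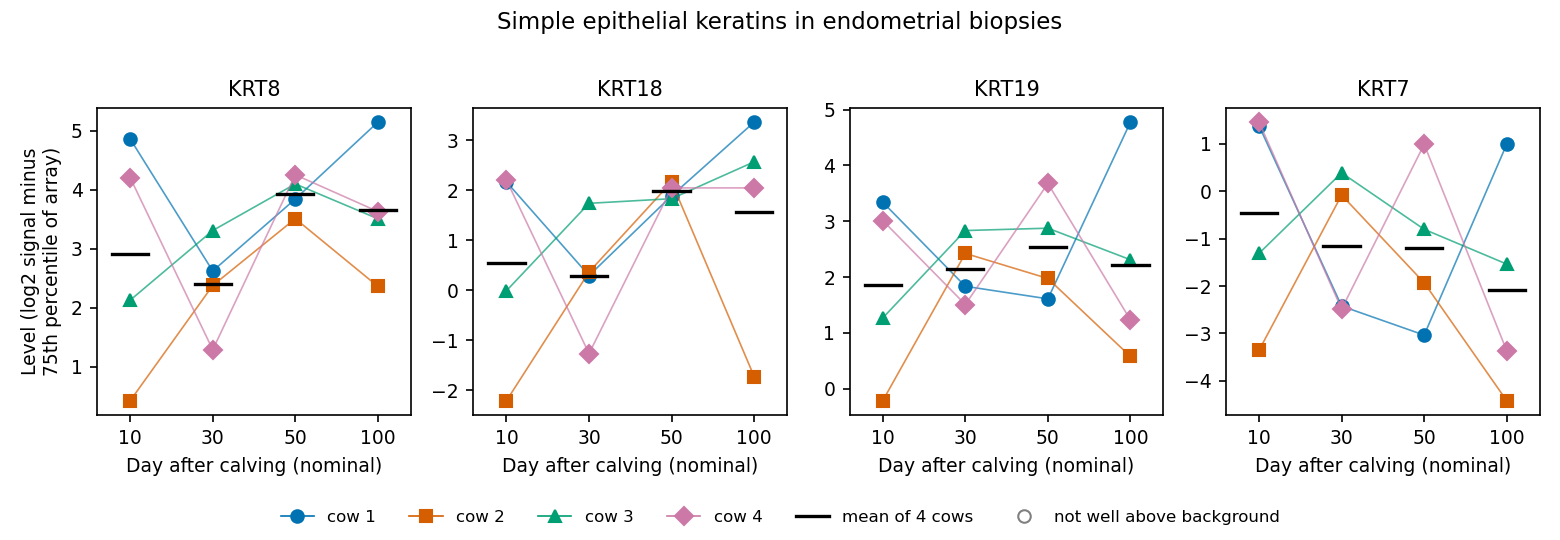
Level (log2 signal minus the 75th percentile of the array) of KRT8, KRT18, KRT19 and KRT7 at nominal days 10, 30, 50 and 100, with 1 point per cow joined by a line and a bar for the mean of 4 cows. The 4 cows almost coincide for KRT18 at day 50 (SD 0.15) and spread over more than 4 log2 units at days 10 and 100; each panel has its own vertical scale.

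The probes of a simple keratin ran alike. Over the 16 arrays the 3 probes of KRT18 correlated pairwise at r of 0.96 to 0.99, both probes of KRT19 at 0.98 and the 4 probes of KRT8 at 0.74 to 0.99. KRT8 and KRT18, the partners of 1 filament, correlated at r = 0.92, which became 0.84 without the day 10 array of cow 2 and the day 30 array of cow 4. All correlations here are descriptions over 16 arrays that share 4 cows, 4 slides and the mix of cells in each biopsy.

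The simple keratins were compared with other epithelial RNA of the same biopsies. The mean centred level of 24 epithelial markers without keratins was used. It correlated with KRT18 at r = 0.95, with KRT8 at 0.83, with KRT19 at 0.77 and with KRT7 at 0.59. Without the day 10 and day 100 arrays of cow 2, where that mean was -2.88 and -4.21, the values were 0.94, 0.89, 0.62 and 0.31. The differences between these correlations were not tested. KRT7 was low at day 50 in cow 1, at -3.03, where the epithelial mean was 1.27, and high at day 10 in the same cow, at 1.38, where it was 0.72. Of 18830 genes compared, those whose level was most like the mean of the 4 simple keratins over the 16 arrays were EHF, an epithelial transcription factor of the ETS family (r = 0.945), C1H3orf52 (0.944), the transcript TC334488 (0.941), SMAGP, a small adhesion protein (0.936), and SLC37A1, a sugar phosphate transporter (0.935).

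**Figure D4:**
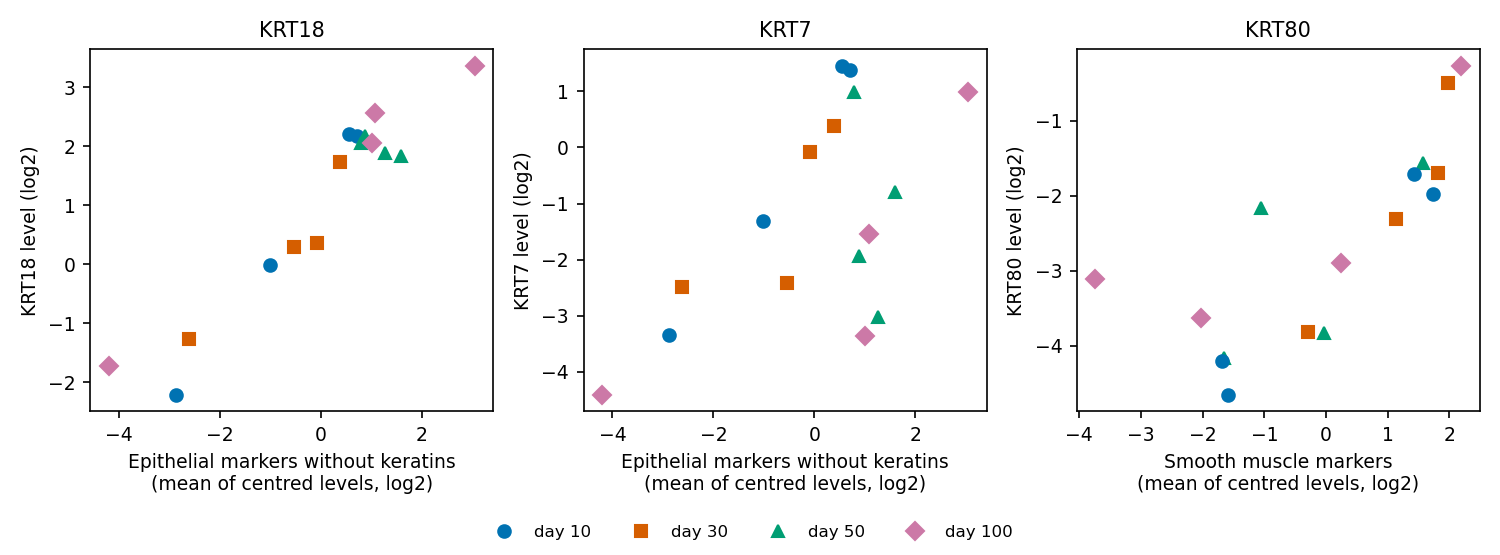
Levels of KRT18 and KRT7 against the mean centred level of 24 epithelial markers without keratins, and of KRT80 against that of 10 smooth muscle markers, with 1 point for each of 16 arrays and symbols for the day. KRT18 follows the epithelial mean closely (r = 0.95), KRT7 loosely (r = 0.59), and KRT80 runs with the smooth muscle mean (r = 0.77).

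Several keratins of stratified epithelia and hair ran with the simple keratins. All 6 keratin probes with a pattern were tested, among them a KRT19 probe, against 26 of the 80 without. Leaving out the simple keratins, all 5 with a pattern were tested, against 17 of the 71 without. The patterns were chosen after the keratin probe sequences had been read, so these counts are a description and no test. KRT6A, known from stratified and wounded epithelium, was well above background on 15 arrays by its probe at the rod start and on 0 arrays by both its other probes. KRT83, a hair shaft keratin, was read on 16 arrays by 1 probe, on 1 array by another and on 0 arrays by the third.

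KRT13 (KRT15) was read on 16 arrays by both its pattern probes. Of the 54 aligned bases of its rod-end probe and the KRT19 rod-end probe, 44 were identical (81.5%). Whether these probes read RNA of another keratin was not tested, and the levels of KRT6A, KRT83, KRT13 (KRT15) and KRT10 are uncertain as levels of the named gene.

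The values of these probes followed those of simple keratins in part. KRT83 was at -0.91, -4.49, -3.46 and -1.28 in cows 1 to 4 at day 10, at -4.02, -2.44, -2.18 and -5.06 at day 30, at -4.23, -4.21, -3.55 and -1.64 at day 50 and at -1.33, -4.28, -4.46 and -4.74 at day 100. Its high arrays are those on which KRT7 was high, and the correlation over 16 arrays was r = 0.92, or 0.95 without the day 100 array of cow 2 and the day 10 array of cow 4. The rod-start probe of KRT13 (KRT15) correlated with KRT19 at r = 0.88 and with the rod-start probe of KRT6A at 0.95. KRT6A, which ranged from -6.49 to -1.99, correlated with KRT8 at r = 0.77. The rod-end probe of KRT13 (KRT15) correlated with KRT19 at 0.55, which became 0.19 without the day 100 array of cow 1 and the day 10 array of cow 2.

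Another probe of KRT13 (KRT15), on chromosome 19 at 43079219 to 43079278 with neither pattern, gave a picture of its own. Its level at day 30 was 0.50 in cow 1 and 1.09 in cow 4, against -8.84 in cow 2 and -7.31 in cow 3, where it was not well above background. At day 100 it was 1.29, -4.25, -2.86 and -6.51 in cows 1 to 4, and at day 10 it was -3.20, -3.87, -3.21 and -6.40. The high arrays were thus the day 30 arrays of cows 1 and 4 and the day 100 array of cow 1. It correlated with KRT19 at r = 0.05 and with the rod-start probe of its own gene at -0.03. The 3 tested probes of KRT13 (KRT15) therefore disagree, and none passed the test in any comparison.

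KRT80 and KRT75 ran with smooth muscle markers and, less closely, against epithelial ones. KRT80, a type II keratin of epithelia, was at -4.66, -1.98, -1.71 and -4.21 in cows 1 to 4 at day 10, at -0.50, -1.70, -3.82 and -2.31 at day 30, at -3.84, -1.57, -4.16 and -2.16 at day 50 and at -3.11, -0.27, -3.64 and -2.89 at day 100. Cow 2 was high at all 4 times, and the times overlapped. KRT80 correlated with the mean of 10 smooth muscle markers at r = 0.77 (0.88 without the day 100 arrays of cows 1 and 3). With the epithelial mean it correlated at -0.62 (-0.45 without the day 10 and day 100 arrays of cow 2). The other tested probe of KRT80 gave 0.72 with smooth muscle. Both probes correlated at 0.96. KRT75, a type II keratin of the hair follicle, correlated with the smooth muscle mean at r = 0.80 and with the epithelial mean at -0.44. It ranged from -7.62 to 0.71, but its 2 tested probes correlated with each other at 0.36. The 4 simple keratins themselves correlated with the smooth muscle mean at r from -0.80 (KRT19) to -0.66 (KRT7). The smooth muscle mean itself ran from -1.69 to 1.74 at day 10, from -0.30 to 1.98 at day 30, from -1.66 to 1.57 at day 50 and from -3.74 to 2.19 at day 100, with 0 of 10 markers called by limma in any comparison and 3 with an unadjusted p under 0.05, lower at day 100 against day 30. The part of muscle content in the KRT80 and KRT75 values was not tested.

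KRT78, a type II keratin known from stratified epithelia, was read by its tested probe in cows 1 and 2 and not in cows 3 and 4. Its level was -4.42, -5.32, -5.42 and -4.81 at days 10, 30, 50 and 100 in cow 1 and -4.90, -4.92, -4.79 and -4.56 in cow 2, well above background on all 8 arrays. It was -6.83, -7.56, -8.26 and -5.66 in cow 3 and -8.50, -8.28, -8.54 and -8.12 in cow 4, well above background on none of 8. The values of cows 1 and 2 all lay above those of cows 3 and 4. The probe entered the test only through cows 1 and 2, so the difference between cows is given with no test. Between times, KRT78 was higher at day 100 than at day 50 in 4 of 4 cows, with a difference of 0.96 ± 0.36 (SE, limma adjusted p = 0.912), which did not pass, and than at day 30 in 4 of 4 cows, with 0.73 ± 0.36 (SE, limma adjusted p = 0.411). The probe lies on chromosome 5 at 30050311 to 30050370. The 4 other probes of KRT78 were well above background on 0 to 3 arrays and were not tested. Cow and slide cannot be told apart.

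**Figure D5:**
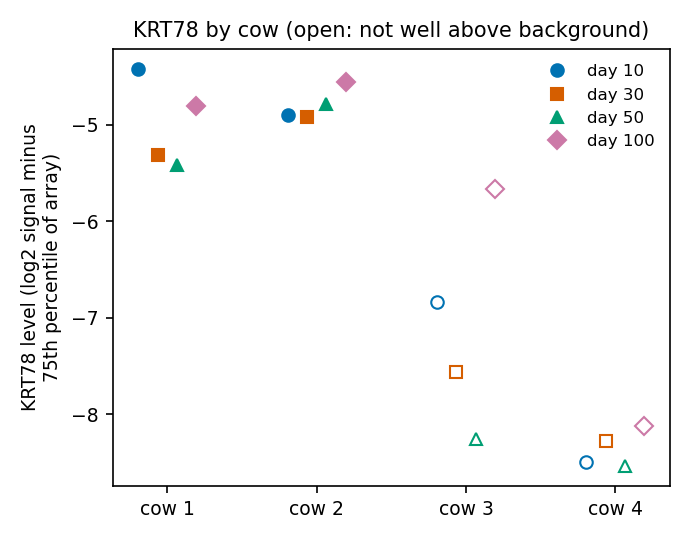
Level of KRT78 (log2 signal minus the 75th percentile of the array, vertical axis) by cow (horizontal axis), with 1 symbol for each day and open symbols for arrays not well above background. All 8 points of cows 1 and 2 lie between -5.42 and -4.42, above the 8 points of cows 3 and 4.

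The remaining keratins with a tested probe showed no called difference. KRT81, a hair shaft keratin, was well above background on 16 arrays and had the smallest range of the 32 tested keratin probes, between -1.38 and -0.65, while the epithelial mean of the same arrays ran from -4.21 to 3.05. KRT79, a type II keratin of skin, lay between -1.92 and -0.62 and KRT85, a hair shaft keratin, between -4.55 and -2.998, both well above background on 16 arrays. KRT17, a type I keratin induced in stressed epithelium, was well above background on 6 arrays and ranged from -8.82 to -4.16. KRT31 and KRT35, type I hair shaft keratins, were well above background on 9 arrays each and ranged from -8.12 to -5.71 and from -6.96 to -3.07.

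Genes that work with keratins passed the test in no comparison either. Of 22 listed genes of desmosomes and hemidesmosomes, the junctions that anchor keratin filaments, 19 were measured and 0 were called in any of the 6 comparisons. Their median difference was 1.02 at day 50 and 0.47 at day 100 against day 10, and the lowest limma adjusted p was 0.0532, with 4 (2 higher, 2 lower) and 3 (2 higher, 1 lower) members at an unadjusted p under 0.05, beside 18.6% and 25.7% of all tested probes. Of 16 listed genes of other intermediate filaments 13 were measured and 0 called, with medians of -0.12 and -0.35 at days 50 and 100 against day 10 and 2 members at an unadjusted p under 0.05 in each, all lower, beside the same shares of all tested probes. Of 25 listed genes of the cornified envelope, the protein shell of keratinised cells, 11 were measured and 0 called, with 3 at an unadjusted p under 0.05 at day 50 (2 higher, 1 lower) and 3 at day 100 (all higher) against day 10, beside 18.6% and 25.7% of all tested probes. The lists of basal epithelium (6 of 8 measured) and of ciliated epithelium (7 of 9) also had 0 called. At an unadjusted p under 0.05 there were 2 (1 higher, 1 lower) and 1 (higher) members of the basal list and 3 and 1 of the ciliated list (all higher) at days 50 and 100 against day 10, beside the same 18.6% and 25.7%.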

How the data were processed

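Endometrial RNA of 4 cows at 4 times was read on 16 one-colour Agilent arrays. The deposited scanner files give the intensity of each spot, which per the file headers was background-subtracted by Agilent Feature Extraction 11.5.1.1, while the submitters' processing notes name version 10.5.1.1. Flag columns, of another unit (0 or 1), give the software's verdict on each spot, per the file headers. The authors' deposited value table is on a log2 scale and correlated at r of 0.99985 to 0.99997 over probes with the levels computed here once each probe was centred on its median, with column medians from -0.16 to 0.21. It served as an alternative.

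Spots marked nonuniform (4 to 125 per array) and the 1417 controls were left out, no spot was saturated, and between 61.1% and 76.9% of probes were well above background. Log2 processed signals were shifted by each array's percentile 75, spots of 1 probe were averaged, and 33182 probes well above background on at least 4 arrays entered a linear model of time and cow in limma 3.58.1 (R 4.3.3) (9 residual degrees of freedom) and Benjamini-Hochberg adjustment, two-sided. The labels number the cows, so pairing is by animal; deviations correlated with a median of 0.12 within a cow (24 pairs) and -0.04 between cows (72 pairs). The fit was tested on simulated data. The members and gene lists were chosen with earlier results of these data known. KRT7, KRT8, KRT18, KRT19 and each keratin with a called probe were to be given in every sample, at most 4 called genes per other list, and the 5 genes most like the simple keratins; a gene is given by its probe with the highest mean signal. Keratins described beyond these (KRT222, KRT5, KRT83, KRT80 and KRT78 among them) and the further KRT13 probe were chosen after their values were seen. The lists of stromal fibroblasts and trophoblast had 1 of 8 measured members lower at day 100 against day 10 (PDGFRB, by 2.54 on the log2 scale) and 0 of 2 called. Alternatives were another background correction and normalization, the value table, the filter, the cow term, array weights, cell-content covariates and leaving out cows or arrays. No genome sequence was used. The sequence of 1 keratin probe is not reported here.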

Additional observations from a re-analysis of the deposited data

Results flagged for a closer look

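Each tested keratin, at its probe with the highest mean signal, gave 4 groups of 4 arrays, 88 in all, and in 7 of them 1 array stood apart by a gap that, as a share of the group's whole range, passed Dixon's critical value. Chance flags about 1 in 20 groups. On the day 30 array of cow 4, KRT13 (KRT15) was at -4.51, against -2.15 to -1.75 in the other cows, and KRT6A was at -6.42, against -4.21 to -4.03. Those values come from the rod-start probes of both genes, and the same array had the lowest KRT8 and KRT18 of day 30. On the day 100 array of cow 1, KRT17 was at -4.16, against -8.70 to -8.07 in the other cows, where it was not well above background. KRT83 was at -1.33 on the same array, against -4.74 to -4.28. That array had the highest epithelial mean of all, 3.05. KRT14 was at -3.65 on the day 10 array of cow 1, against -4.18 to -4.14. KRT31 was at -7.70 on the day 50 array of cow 2, where it was not well above background, against -6.12 to -6.05. KRT5 was at -7.41 on the day 10 array of cow 2, against -6.83 to -6.72, and none of these 4 was well above background.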

How the results depend on the processing

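Calls of keratin probes numbered 0, 2 and 1 at days 30, 50 and 100 against day 10, and 1 in the F test. With quantile normalization or the deposited value table these counts were equal. With array weights, which ran from 0.23 to 5.27, there were 1, 3 and 2 at days 30, 50 and 100 against day 10, 1 at day 50 against day 30 and 2 in the F test, while the share of all tested probes called was 2.31%, 14.8%, 8.42%, 1.16% and 7.97% in the same order. A random replicate block for cow gave 2 at day 100, where KRT24 gained a call (adjusted p = 0.0493), and 2 in the F test, and no replicate block gave 0 and 0, so the pairing by animal changes the KRT10 calls at day 100 (adjusted p = 0.0613 without the block) and in the F test. Without the block no other call of KRT10 or KRT24 changed. Normexp with quantile normalization gave 1 at day 50 and 0 in the F test. No filter gave 0 at day 100 and 0 in the F test, and a filter at 12 arrays, which drops KRT10, gave 1, 0 and 0 at day 50, at day 100 and in the F test. Only the 2 times compared gave 0 at day 100. The epithelium covariate gave 0 at day 50 and 0 in the F test, and with smooth muscle added there were 1 at day 50, 2 at day 100 and 0 in the F test. Leaving out 1 cow or 1 array gave counts of 0 to 2 at day 50, at day 100 and in the F test. The cause of these shifts was not tested.

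Of 1110 differences of KRT7, KRT8, KRT18, KRT19, KRT10 and KRT24 recomputed under the 31 alternatives, 69 changed sign, none of them called, 45 lost and 7 gained a call. Only differences called in the main fit could lose a call, those of KRT10 at days 50 and 100 and of KRT24 at day 50 against day 10. The 45 losses are all theirs and are not to be set against the 1110. With the epithelium covariate the differences that changed sign were 0.15 (KRT8) and 0.32 (KRT18) at day 100 against day 50, -0.0219 (KRT18) and -0.26 (KRT19) at day 50 against day 10, and for KRT19 -0.0945 at day 100 against day 10, -0.59 at day 50 against day 30, -0.43 at day 100 against day 30 and 0.17 at day 100 against day 50. With smooth muscle added they were 0.41 (KRT7, day 30 against day 10), 0.26 (KRT18, day 100 against day 50), -0.27, -0.82 and -1.29 (KRT19, day 100 against day 10, day 50 against day 30 and day 100 against day 30) and 1.099 (KRT24, day 100 against day 30). With array weights they were 0.18 (KRT18, day 30 against day 10) and, for KRT19, -0.376, -0.0702 and -0.958 in the same 3 comparisons. With quantile normalization it was -0.0026 (KRT19, day 100 against day 30).

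Without 1 cow or array, differences at day 30 against day 10 ran from -1.20 to 0.82 (KRT18), -0.48 to 0.90 (KRT19), -2.02 to 0.39 (KRT7) and -1.33 to 0.30 (KRT8). At day 50 against day 10 KRT7 ran from -1.54 to 0.49. At day 100 against day 10 KRT19 ran from -0.45 to 1.09. At day 50 against day 30 they ran from -0.21 to 1.11 (KRT19) and -1.22 to 0.98 (KRT7). At day 100 against day 30 they ran from -0.88 to 0.71 (KRT19), -2.56 to 0.70 (KRT24) and -2.38 to 0.20 (KRT7). At day 100 against day 50 they ran from -1.05 to 0.74 (KRT18), -1.47 to 0.40 (KRT19), -2.53 to 0.27 (KRT7) and -0.787 to 0.0306 (KRT8). Signal over background limits KRT24 (1 of 4 arrays well above background), KRT10, KRT222 and KRT5 at day 10.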
